A study of Homo sapiens with 12 samples.

Results

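DOCK2 and 8 further genes of the DOCK family of exchange factors were followed in the RNA sequencing of 2 renal cell carcinoma cell lines, 769-P and ACHN, in which NUF2, a subunit of the Ndc80 kinetochore complex, had been knocked down. The 9 genes were DOCK1, DOCK2, DOCK4, DOCK5, DOCK6, DOCK8, DOCK9, DOCK10 and DOCK11, taken by gene name from the 58302 genes listed. The annotation holds 11 numbered DOCK genes, and 9 were analysed here. DOCK2 was chosen by its own rise in 769-P cells after the knockdown, so its values in that comparison are a description and carry no test. The other 8 genes belong to its family, and the set of 9 was chosen with earlier results of these data known.

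The study comprised 12 libraries in 4 groups of 3: 769-P siNUF2, 769-P siControl, ACHN siNUF2 and ACHN siControl, all harvested 48 h after transfection. The siNUF2 cells received a mixture of siRNAs against NUF2, and the siControl cells a negative-control siRNA. GEO's labels list both lines as clear cell renal cell carcinoma cells, and each line stands for 1 tumor. Nothing in the labels says whether the 3 replicates of a group were separate cultures, so the p-values measure the spread between these libraries, which may be technical. Libraries held between 29244017 and 38864844 gene reads, recovered from the FPKM (fragments mapped to a gene, divided by its exon length and by the size of the library), and DOCK1 alone had between 1848 and 6539 of them in a library. NUF2 itself stood at 3.01 to 4.17 FPKM in the siNUF2 libraries of 769-P against 17.8 to 19.4 in siControl, and at 2.16 to 5.14 against 11.6 to 15.0 in ACHN, with no overlap in either line (limma with Benjamini-Hochberg adjustment, adjusted p = 0.00142 in 769-P, and in ACHN 0.228 without and 0.0128 with the replicate number as a block). Of 11 renal epithelial markers, 9 in 769-P and 8 in ACHN were at 0.5 FPKM or more in all 3 libraries of both groups. The markers short of this were EMX2 and CA9 in both lines and CDH6 in ACHN, with CA9 at no more than 0.121 FPKM in any library.

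DOCK proteins activate small GTPases by exchanging their bound GDP for GTP. Members of the DOCK-A and DOCK-B subfamilies act on Rac, usually together with an ELMO scaffold protein, and members of DOCK-D act on Cdc42, while in DOCK-C DOCK6 acts on both and DOCK8 on Cdc42. Active Rac and Cdc42 drive actin assembly at the cell edge and so cell shape and migration. DOCK2 is best known in leukocytes, where it serves chemotaxis, and DOCK8 is also best known there. Markers of leukocytes were therefore measured beside them: none of 14, among them PTPRC (CD45), was at 0.5 FPKM or more in all 3 libraries of any group, and their summed level ran from 0.717 to 0.839 FPKM in 769-P siNUF2, 1.08 to 1.15 in 769-P siControl, 0.789 to 1.56 in ACHN siNUF2 and 0.695 to 1.71 in ACHN siControl. The highest single value was 1.10 FPKM, for ITGAM in ACHN siControl, and DOCK2 was above the summed level of the 14 markers in all 6 ACHN libraries and in the siNUF2 libraries of 769-P, while in 769-P siControl replicates 2 and 3, at 0.573 and 0.783 FPKM, it was below their sum. The 769-P values of DOCK2 are those that chose the gene. In bulk samples, a lower value from fewer cells of a type and one from less RNA per cell cannot be told apart.

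DOCK1, the broadly expressed Rac activator of the DOCK-A subfamily, had the highest level of the 9 genes in each of the 4 groups, on the FPKM scale, which divides by transcript length. Its mean was 8.16 ± 0.821 FPKM (SD, n = 3) in 769-P siControl and 18.9 ± 1.64 in ACHN siControl, above every library of the next gene. In 769-P siControl the order went on with DOCK8 (4.36 ± 1.04), DOCK10 (3.03 ± 0.406) and DOCK5 (2.54 ± 0.0525), whose neighbours in the order overlapped, and then, below every DOCK5 library, with DOCK6, DOCK9, DOCK2 and DOCK4, again with overlap between neighbours. DOCK11 was last at 0.277 ± 0.0384. In ACHN siControl DOCK2 came second at 10.9 ± 3.73 FPKM, and DOCK10, DOCK4, DOCK5, DOCK6, DOCK11 and DOCK9 followed between 7.39 and 2.29 with each pair of neighbours overlapping. DOCK8 stood last there at 0.00889 ± 0.00175.

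DOCK2, a Rac activator, stood at 7.09, 3.24 and 5.43 FPKM in siNUF2 replicates 1, 2 and 3 of 769-P and at 1.99, 0.573 and 0.783 in the siControl replicates. The groups did not overlap, although siControl replicate 1 was well above the other two. The ratio within a replicate number was 3.57, 5.65 and 6.94, and the ratio of the means was 4.72. These are the values that chose the gene, and the log2 difference of 2.26 has no test here; it ran from 1.58 to 2.74 over the other ways of processing. DOCK2 took 17.5% ± 6.18 (SD, n = 3) of the summed FPKM of the 9 genes after the knockdown and 4.66% ± 3.25 without it.

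In ACHN, which the choice of DOCK2 did not use, DOCK2 stood at 12.2, 19.6 and 16.0 FPKM in siNUF2 replicates 1, 2 and 3 and at 7.17, 14.6 and 11.0 in siControl. The groups overlapped, and replicate 1 was lowest and replicate 2 highest in both of them. Within each replicate number siNUF2 was higher, by 1.71, 1.34 and 1.45 times. The log2 difference was 0.58 ± 0.293 (SE, n = 3 against 3), with an adjusted p of 0.713 in limma's fit with Benjamini-Hochberg adjustment over 15114 genes, and ran from 0.31 to 0.82 over the other ways of processing. With the replicate number as a block, the SE was 0.0776 and DOCK2 rose (limma, adjusted p = 0.0202). The exact permutation test over 3 against 3 libraries, two-sided, gave p = 0.2, and 0.1 is the smallest it can give. Even in the siNUF2 group of 769-P, at 5.25 ± 1.93 FPKM, DOCK2 was below each siControl library of ACHN.

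DOCK4, the DOCK-B member and also a Rac activator, had values of 2.18, 1.74 and 2.19 FPKM in siNUF2 replicates 1, 2 and 3 of 769-P and of 1.02, 0.738 and 0.674 in siControl. All 3 siNUF2 libraries were above all 3 siControl libraries, and the ratio of the means was 2.51. DOCK4 rose by 1.25 ± 0.190 on the log2 scale (SE, n = 3 against 3; limma, adjusted p = 0.0136), and with the block the adjusted p was 0.00813. The call was lost without siControl replicate 2 (limma, adjusted p = 0.0513) and without siNUF2 replicate 3 (limma, adjusted p = 0.0578), at log2 differences of 1.20 in both cases. The exact permutation test gave 0.1, its smallest possible p.

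In ACHN, DOCK4 was at 7.83, 3.98 and 4.75 FPKM after the knockdown and at 4.95, 3.49 and 4.25 without it. The groups overlapped, and the highest library of each was replicate 1. The log2 difference was 0.34 ± 0.274 (SE, n = 3 against 3) and did not pass (limma, adjusted p = 0.881, and 0.116 with the block).

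DOCK2 lies on chromosome 5, plus strand, at 169637247 to 170083382 (hg38, GENCODE release 29), in 58 exon blocks, and DOCK4 on chromosome 7, minus strand, at 111726110 to 112206411, in 60. No other gene shares an exon with either of them. DOCK2 and DOCK4 were both higher after the knockdown in 769-P, and DOCK8 was lower, with a call in the fit with the block only. The 250 bases before their RefSeq starts (GRCh38.p14) are therefore shown 5′ to 3′ on the strand of the gene. For DOCK8, which has more than 1 start in the RefSeq table, the window at the start of the gene is shown. GENCODE starts these genes 28, 12 and 11 bases before the window ends. The capitals mark GGAAGT or its reverse complement ACTTCC, the core that ETS factors bind.
DOCK2, chr5:169637025-169637274, plus strand: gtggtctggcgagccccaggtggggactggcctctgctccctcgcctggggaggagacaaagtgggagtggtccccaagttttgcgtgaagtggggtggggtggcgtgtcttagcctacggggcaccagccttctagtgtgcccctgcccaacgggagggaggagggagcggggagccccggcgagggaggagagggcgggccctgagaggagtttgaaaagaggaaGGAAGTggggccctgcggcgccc
DOCK4, chr7:112206400-112206649, minus strand: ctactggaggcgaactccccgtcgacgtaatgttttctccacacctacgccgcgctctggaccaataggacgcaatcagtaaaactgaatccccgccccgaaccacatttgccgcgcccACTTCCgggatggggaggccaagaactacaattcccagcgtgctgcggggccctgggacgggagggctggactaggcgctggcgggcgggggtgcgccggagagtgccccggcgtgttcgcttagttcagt
DOCK8, chr9:214615-214864, plus strand: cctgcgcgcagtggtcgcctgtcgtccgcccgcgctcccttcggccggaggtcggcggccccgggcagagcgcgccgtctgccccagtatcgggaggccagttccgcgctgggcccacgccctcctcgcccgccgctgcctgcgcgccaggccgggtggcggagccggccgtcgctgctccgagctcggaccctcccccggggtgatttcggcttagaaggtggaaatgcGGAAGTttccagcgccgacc

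Promoters of 7 of the 9 members are in the RefSeq table, with 11 windows in all, since 3 members have more than 1. GGAAGT, searched on both strands, was in 7 of the 11 windows, against 19.5% of the 35116 windows of all genes. By gene these were DOCK2, DOCK4, DOCK8, DOCK10 and DOCK11. The first base of the match lay 23 bases before the RefSeq start in DOCK2, 131 in DOCK4 and 20 in the DOCK8 window shown. GENCODE starts DOCK2 28 bases before the end of its window, so by GENCODE the DOCK2 match lies after the start. GGGCGG, the GC box, was in 6 of the 11 windows against 42.6% of all, and CCAAT in 2 (DOCK4 and DOCK10) against 32.0%. The TATA box (TATAAA), the core of the interferon-stimulated response element, the AP-1 core (TGANTCA) and the E-box (CACGTG) were in 0 of the 11, against 10.7%, 3.02%, 6.57% and 6.34% of all windows. No test set the matches against the members' changes. GGAAGT was in the windows of DOCK4, which rose in 769-P, and of DOCK8, called lower there with the block only, alike. DOCK1, called higher there with the block only, had 0 matches in its window, which is not shown.

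The remaining DOCK-A genes were DOCK1 and DOCK5. DOCK1 stood at 8.52, 10.7 and 10.4 FPKM in siNUF2 replicates 1, 2 and 3 of 769-P against 7.71, 9.11 and 7.66 in siControl, and at 21.8, 23.2 and 23.3 against 17.8, 20.8 and 18.2 in ACHN. The groups overlapped in 769-P and not in ACHN, and each siNUF2 library was above the siControl library of its number, by 1.11 to 1.36 times in 769-P and 1.11 to 1.28 times in ACHN. The log2 differences were 0.29 ± 0.115 and 0.27 ± 0.0978 (SE, n = 3 against 3). Neither passed without the block (limma, adjusted p = 0.162 in 769-P and 0.537 in ACHN), and with it DOCK1 rose in both lines (limma, adjusted p = 0.0449 and 0.0446). DOCK5, a Rac activator, was among the steadiest members, between 2.48 and 2.80 FPKM in 769-P and between 3.45 and 3.82 in ACHN, with log2 differences of 0.09 (95% confidence interval -0.12 to 0.29) and -0.03 (-0.26 to 0.21).

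DOCK8 stood at 2.42, 3.86 and 3.25 FPKM in siNUF2 replicates 1, 2 and 3 of 769-P and at 3.16, 4.96 and 4.95 in siControl. Replicate 1 was lowest in both groups, and each siNUF2 library was below the siControl library of its number, at 0.767, 0.778 and 0.658 of it. The log2 difference of -0.42 ± 0.221 (SE, n = 3 against 3) did not pass without the block (limma, adjusted p = 0.264) and passed with it (limma, adjusted p = 0.0171). In ACHN DOCK8 had between 2 and 7 reads in a library and stayed below the filter of 0.5 FPKM. Without the filter its log2 difference there was -0.01 (limma, adjusted p = 0.999), and the exact permutation test gave p = 0.9, values that so few reads say little about. The other DOCK-C gene, DOCK6, ran from 1.70 to 2.42 FPKM in the 769-P libraries and from 2.43 to 4.48 in those of ACHN, with log2 differences of 0.13 (95% confidence interval -0.23 to 0.48) and 0.06 (-0.62 to 0.73). The counting setting for strand is not given in the sources used here, and DOCK1, DOCK6 and DOCK8 share between 367 and 504 bases of exon with genes on the opposite strand, which were at no more than 0.579 FPKM.

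In DOCK-D, whose members act on Cdc42, DOCK10 stood at 3.04, 1.83 and 2.73 FPKM in siNUF2 replicates 1, 2 and 3 of 769-P and at 3.28, 2.56 and 3.26 in siControl. The ACHN values were 6.97, 2.54 and 6.19 against 9.63, 3.40 and 9.15. Replicate 2 was lowest in each of the 4 groups, and in both lines each siNUF2 library was below the siControl library of its number, at 0.676 to 0.747 of it in ACHN and 0.713 to 0.926 in 769-P. The log2 difference in ACHN was -0.47 ± 0.538 (SE, n = 3 against 3) without the block (limma, adjusted p = 0.954). Without the block, leaving out siNUF2 replicate 2 moved it to -0.01, siControl replicate 1 to -0.20, siControl replicate 3 to -0.25, siNUF2 replicate 1 to -0.73 and siControl replicate 2 to -0.95. With the block the SE was 0.0576 and DOCK10 fell (limma, adjusted p = 0.0184), while in 769-P it did not pass (log2 difference -0.26, limma adjusted p = 0.452 without the block and 0.0902 with it).

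DOCK11 stood at 0.356, 0.440 and 0.416 FPKM in siNUF2 replicates 1, 2 and 3 of 769-P and at 0.248, 0.320 and 0.262 in siControl. The groups did not overlap and the ratio of the means was 1.46, but all 6 values were below the filter, and the exact permutation test gave p = 0.1, its smallest. Without the filter the log2 difference was 0.43 (limma, adjusted p = 0.443). In ACHN DOCK11 was at 1.52, 4.79 and 2.46 FPKM against 1.42, 4.61 and 2.43. Replicate 2 was about as high in one group as in the other, and libraries of the same number differed by 1.01 to 1.07 times, with a log2 difference of 0.06 ± 0.537 (SE, n = 3 against 3; limma, adjusted p = 0.998 without the block and 0.580 with it). DOCK9 ran from 1.65 to 2.01 FPKM in the 769-P libraries and from 1.75 to 2.69 in those of ACHN, with log2 differences of 0.01 (95% confidence interval -0.26 to 0.27) and -0.13 (-0.64 to 0.38).

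**Figure D1:**
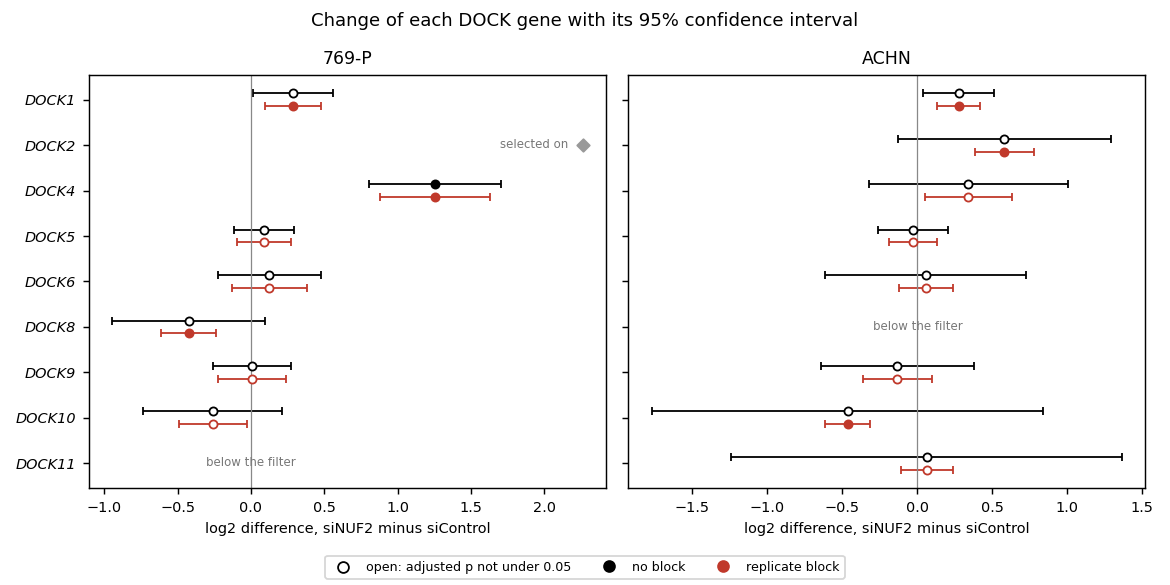
Log2 difference between siNUF2 and siControl (x axis) of each DOCK gene (y axis) in 769-P (left) and ACHN (right), with 95% confidence intervals, without the replicate block (black) and with it (red). Filled points passed at an adjusted p under 0.05, and the diamond is DOCK2 in 769-P, on which it was selected. DOCK4 in 769-P passed in both fits, and the ACHN intervals narrowed with the block, from an SE of 0.293 to 0.0776 for DOCK2.

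Counted over the family, 8 members besides DOCK2 entered the comparison in 769-P and 7 of them passed the filter. One, DOCK4, was called (limma, adjusted p under 0.05), or 14.3% of the 7, against 9.9% of the 14157 genes tested. With the block 3 were called, DOCK1 and DOCK4 higher and DOCK8 lower, against 27.6% of all genes tested. Of the 7 tested, DOCK4 was the one whose groups did not overlap, against 33.3% of all genes tested, and DOCK11, below the filter, did not overlap either. The median log2 difference of the 7 was 0.09, beside -0.01 for all genes tested. A single gene is 14.3% of the 7, so neither count of calls stands apart from its background by more than about 1 gene.

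In ACHN, 8 of the 9 members passed the filter and 0 were called by limma without the block, against 0.0% of the 15114 genes tested; at an unadjusted p under 0.05 there was 1 member, DOCK1, and there were 1231 genes, and limma-voom on the recovered reads also called 0 members and 0 genes. With the block 3 were called, DOCK1 and DOCK2 higher and DOCK10 lower, against 11.7% of all genes tested. The groups did not overlap in 1 member, DOCK1, against 14.3% of all genes. The median log2 difference was 0.06, beside 0.00 for all genes tested.

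For the question whether the lines responded differently, an interaction term was fitted to the 12 libraries, given as the change in ACHN minus the change in 769-P. Of 8 members 0 passed in limma's fit, against 0.0% of 16575 genes; at an unadjusted p under 0.05 there was 1 member, DOCK4, and there were 779 genes, and limma-voom called 0 members. With the block 0 of the 8 passed, against 1.42% of all genes tested. DOCK8 and DOCK11 are among the 8 but passed the filter through 1 line only. Both were below 0.5 FPKM in every library of the other line, so their interactions say little. The nearest was DOCK4, whose change was smaller in ACHN by 0.91 on the log2 scale (interaction -0.91, 95% confidence interval with the block -1.38 to -0.44, limma adjusted p = 0.0786; 1.00 without the block). The interval for DOCK1 with the block ran from -0.23 to 0.22. DOCK2 had an interaction of -1.67, given with no test.

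Without the knockdown, the lines differed in most of the genes tested, in and outside the family. Of 8 members besides DOCK2, 7 were called between ACHN and 769-P under siControl (limma, adjusted p under 0.05), against 61.4% of the 15381 genes tested. DOCK8 and DOCK11 passed the filter only through the line in which they were high. They therefore had to differ, and their calls count for nothing. Of the other 6, 5 were called, each higher in ACHN. With 61.4% of all genes called, nothing about the family is read from this count. DOCK4 was higher by 2.24 ± 0.207 on the log2 scale (SE, n = 3 against 3; limma, adjusted p = 0.000142) and DOCK1 by 1.19 ± 0.113 (limma, adjusted p = 0.000163), with mean FPKM 5.21 and 2.32 times as high. DOCK11, at 0.248 to 0.320 FPKM in 769-P siControl and 1.42 to 4.61 in ACHN siControl, had a mean 10.2 times as high in ACHN. DOCK5 was higher by 0.50 (limma, adjusted p = 0.00618). DOCK6 (0.69; limma, adjusted p = 0.0425) and DOCK10 (1.11; limma, adjusted p = 0.0440) were just past the threshold, and each lost its call in 5 of 6 fits that left out a library and in the fit without the filter. DOCK9 did not pass (0.28, 95% confidence interval -0.18 to 0.74; limma, adjusted p = 0.240), though it did without ACHN siControl replicate 2 (limma, adjusted p = 0.0424). DOCK2 was at 9.81 times its 769-P siControl mean in ACHN siControl, a value with no test because the choice of the gene used those 769-P libraries.

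DOCK8 was lower in ACHN. Its 3 siControl libraries held 13 reads in ACHN and 5685 in 769-P, which relative to all reads is 490 times as many in 769-P (exact 95% interval 286 to 920, for counting error only). The siNUF2 libraries held 12 and 3959 reads, a fold of 385 (220 to 746). The fitted log2 difference of -5.33 is set by the pseudocount of 0.1 FPKM and is smaller than the fold in reads. When a 769-P library was left out, DOCK8 no longer had 3 libraries past the filter and was not tested.

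**Figure D2:**
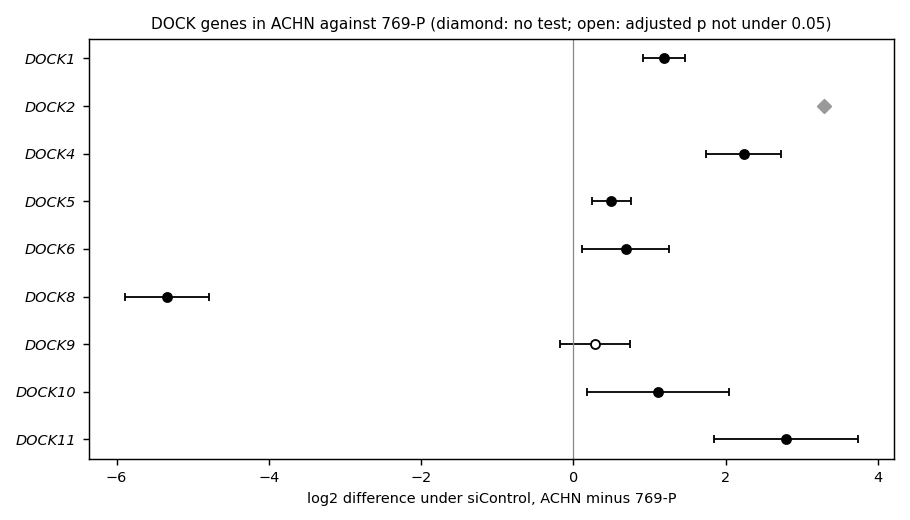
Log2 difference between ACHN and 769-P under siControl (x axis) of each DOCK gene (y axis), with 95% confidence intervals; filled points passed at an adjusted p under 0.05, and the diamond is DOCK2, with no test. The 6 called genes other than DOCK8 were higher in ACHN, and DOCK8 was lower, by a fitted value that the pseudocount holds at -5.33; DOCK8 and DOCK11 passed the filter through 1 line only.

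The summed level of the 9 genes was 24.1 ± 0.590 FPKM (SD, n = 3) in 769-P siControl and 29.9 ± 1.28 in siNUF2, and 53.6 ± 1.84 and 61.4 ± 0.889 in ACHN. Since DOCK2 is part of the sum and was chosen by its rise in 769-P, this difference is a description. DOCK8 made up 18.1% ± 4.11 of the sum in 769-P siControl and 10.7% ± 2.71 in siNUF2, and under 0.03% in each ACHN library. Part of its lower share in 769-P siNUF2 comes from DOCK2 in the sum. The mean of DOCK8 itself was 0.730 times that of siControl, with overlapping groups. DOCK1 held about the same share in the 4 groups, between 33.1% and 37.0%.

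**Figure D3:**
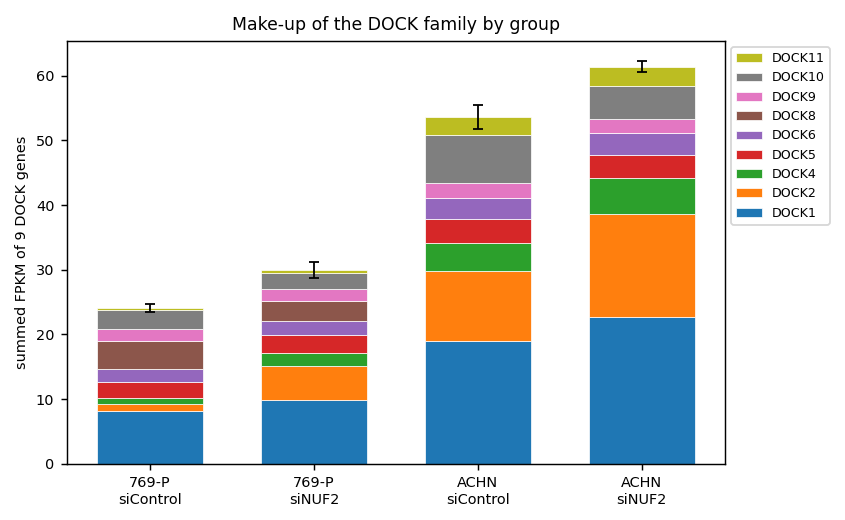
Mean FPKM of the 9 DOCK genes stacked by group (x axis: cell line and siRNA; y axis: summed FPKM; error bars: SD of the sum over 3 libraries). The stack was 24.1 and 29.9 FPKM high in 769-P siControl and siNUF2 and 53.6 and 61.4 in ACHN; the DOCK2 layer is the one that differs most in 769-P and the DOCK8 layer is absent to the eye in ACHN.

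RAC1, RAC2, RAC3 and CDC42, the GTPases that DOCK proteins act on, were read beside the family. RAC1 rose in 769-P from 92.6 ± 10.5 FPKM (SD, n = 3) to 126.3 ± 6.38 (log2 difference 0.47; limma, adjusted p = 0.0281). CDC42, the target of DOCK-D, fell there from 61.3 ± 4.01 to 44.9 ± 4.10 FPKM (-0.44; limma, adjusted p = 0.0277). In ACHN RAC1 rose with the block, from 139.5 ± 9.63 to 189.6 ± 24.5 FPKM (0.45; limma with the block, adjusted p = 0.0169, and 0.431 without it), and CDC42 fell with it, from 52.7 ± 9.21 to 41.6 ± 6.06 FPKM (-0.33; limma with the block, adjusted p = 0.0223, and 0.741 without it). RAC3 did not pass in either line, with log2 differences of -0.04 in 769-P and 0.10 in ACHN.

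Further genes of the pathway were read from 4 lists of 68 genes in all: adaptors and partners of DOCK proteins, other Rac and Cdc42 exchange factors, inhibitors, and effectors. In 769-P, 53 of the 68 were tested and 5 passed (limma, adjusted p under 0.05), all 5 lower, or 9.43% beside 9.9% of all genes tested. LRCH1, which binds DOCK8, fell by 0.64 on the log2 scale, from 11.9 ± 1.55 to 7.48 ± 0.392 FPKM (limma, adjusted p = 0.0150). PAK2, a kinase that active Rac and Cdc42 switch on, fell by 0.43, and CYRIB, which binds active RAC1 and restrains it, by 0.40. FGD4 and FGD6, exchange factors of the FGD family, of which FGD4 acts on Cdc42, fell by 0.59 and 0.53 (limma, adjusted p between 0.0222 and 0.0362 for these 4). By list, 1 of 10 adaptors and partners tested, 2 of 14 exchange factors, 1 of 12 inhibitors and 1 of 17 effectors passed, and the lists' median log2 differences were -0.19, -0.07, 0.08 and 0.03.

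With the block 17 of the 53 passed in 769-P, 4 higher and 13 lower, or 32.1% beside 27.6% of all genes. Among those added were BCAR1, the docking protein that brings CRK and DOCK1 together (-0.30; limma with the block, adjusted p = 0.0104, and 0.0506 without it), WASF1, a subunit of the WAVE complex that carries the Rac signal to actin (-0.49; 0.0328 and 0.0757), and ABR, which switches Rac and Cdc42 off and was higher (0.26; 0.0313 and 0.0687). Leaving out any 1 of the 6 libraries moved the count of 5 without the block by more than 1.5 times, to 9 without siControl replicate 1 and to 1 or 2 without each of the others.

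In ACHN, 55 of the 68 were tested and 0 passed in limma without the block, beside 0.0% of all genes. With the block 9 passed, 2 higher and 7 lower, or 16.4% beside 11.7% of all genes tested. FGD4 fell there by 0.54, FGD6 by 0.64, LRCH1 by 0.44, WASF1 by 0.36, PAK2 by 0.26 and ARHGAP24, a GTPase-activating protein for Rac, by 0.58. PREX1, another Rac exchange factor, rose by 0.55, and RACGAP1, a GTPase-activating protein that serves cytokinesis, by 0.34. The adjusted p of these 8 in limma lay between 0.0182 and 0.0485 with the block and between 0.492 and 0.932 without it. With the block, 7 genes passed in both lines: ARHGAP24, FGD4, FGD6, LRCH1, PAK2, VAV3 and WASF1. This is 41.2% of the 17 in 769-P and 77.8% of the 9 in ACHN, and all 7 had the same sign in both lines. VAV3, of the exchange factor list, was lower by 0.73 in 769-P and 0.51 in ACHN (limma with the block, adjusted p = 0.00632 and 0.0198, and 0.121 and 0.988 without it). Over all 12931 genes tested in both lines, 1096 passed with the block in both, which is 29.8% of those called in 769-P and 66.5% of those called in ACHN, and 98.1% of the 1096 had the same sign, so nothing is read from the shares of the lists. The median log2 differences of the lists in ACHN were -0.07, -0.03, 0.05 and 0.00, in the order above.

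**Figure D4:**
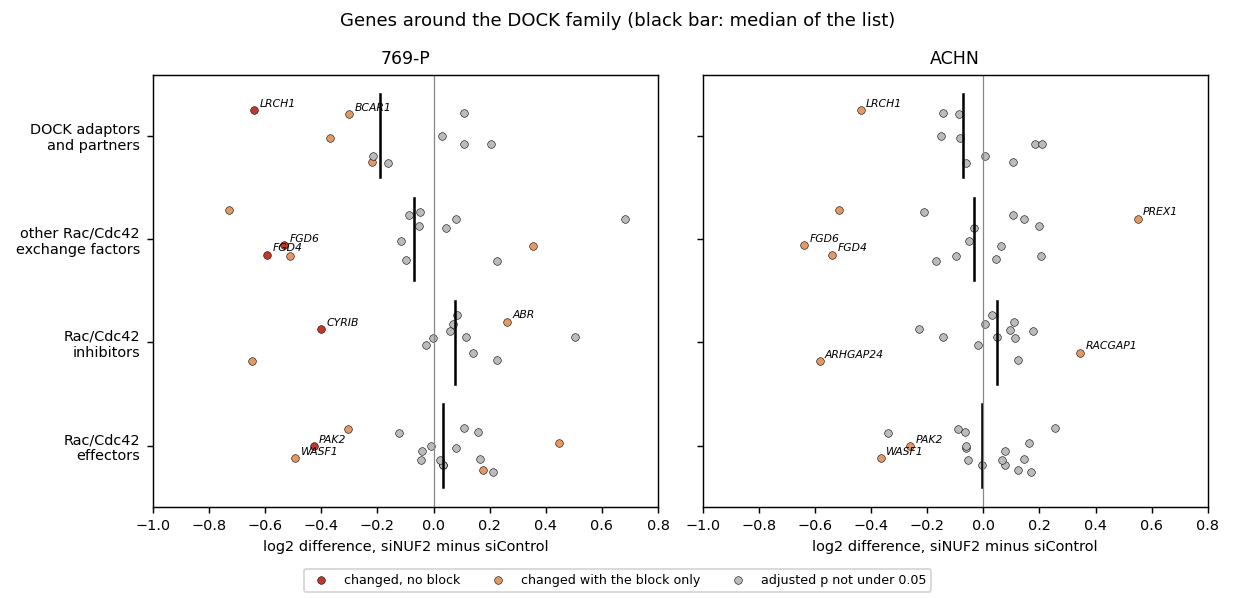
Log2 difference between siNUF2 and siControl (x axis) of the tested genes of the 4 lists (rows) in 769-P (left, 53 genes) and ACHN (right, 55 genes); red genes passed without the block, orange ones with the block and not without it, and black bars are list medians. LRCH1, FGD4 and PAK2 were lower by 0.64, 0.59 and 0.43 in 769-P. In ACHN they were lower by 0.44, 0.54 and 0.26 and passed with the block only.

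As for the partners that Rac-directed DOCK proteins use, ELMO1 and RAC2 were singled out after their values were seen. ELMO1, the scaffold that DOCK2 is paired with in leukocytes, was at no more than 0.0181 FPKM in any of the 12 libraries, while ELMO2 was at 4.68 ± 0.439 FPKM (SD, n = 3) in 769-P siControl and 4.20 ± 0.506 in ACHN siControl, and ELMO3 at 2.27 ± 0.512 and 2.69 ± 0.505. ELMO2 and ELMO3 did not pass in either line, with log2 differences between -0.15 and 0.11. RAC2, the Rac of blood cells, was between 0.0616 and 0.201 FPKM in 769-P siControl and between 14.2 and 77.6 in ACHN siControl, given with no test, so that the ACHN libraries themselves differed several-fold. Its difference between siNUF2 and siControl in ACHN was -0.24 and did not pass (limma, adjusted p = 0.993, and 0.0562 with the block).

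The pattern of DOCK2 over the 12 libraries, on the log2 scale and centred on the mean of each line, was set beside that of the 12930 other genes tested in both lines. The 10 genes most like it were FHL3, ANXA1, MYLK, RNF182, KRT80, ATRNL1, PLK2, DENR, DNAJA1 and MYOF, with Pearson r from 0.980 down to 0.938. FHL3 is a LIM-domain protein, ANXA1 a calcium-dependent phospholipid-binding protein, MYLK the myosin light chain kinase and MYOF a membrane-repair protein. MYLK was higher after the knockdown by 1.22 in 769-P and 0.48 in ACHN, RNF182 by 1.71 and 0.17, and FHL3 by 0.53 and 0.10, all log2 differences given with no test. The 769-P values that chose DOCK2 enter r, so genes ranked this way tend to rise there by construction. The r of PLK2 was 0.986 within 769-P and 0.627 within ACHN, and that of MYOF 0.981 and 0.665. The libraries share the knockdown and, by number, a replicate, and 42 genes had an r of at least 0.9. Of the family, DOCK4 ranked 551 of these genes, with an r of 0.753 that came from 769-P, whose values chose DOCK2 (0.972 within 769-P and -0.288 within ACHN). DOCK1 had an r of 0.497 (0.423 within 769-P and 0.881 within ACHN), and DOCK10 one of -0.302 (-0.123 and -0.824).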

How the data were processed

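RNA of 769-P and ACHN cells was sequenced on the Illumina platform, and fastp filtering by the authors followed. The deposited values are FPKM per gene and library; the submitters' processing notes name HISAT2 2.0.5, featureCounts 1.5.0-p3 and hg38. The strand setting is not given in the sources used here. Reads were recovered from the FPKM with GENCODE release 29 exon lengths (58039 of 58302 genes): 96.1% to 96.4% of values under 200 reads were whole within 0.01 read. DOCK2 and DOCK10 were whole in all libraries with lengths shorter than annotated. Libraries had a median of 33526658 reads; counting error matters little above 1 FPKM and is large for DOCK8 in ACHN and DOCK11 in 769-P.

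FPKM were scaled by a trimmed mean of log ratios (30% and 5% trimmed), and log2(FPKM + 0.1) was fitted with limma 3.58.1 in R 4.3.3 (lmFit, eBayes with a trend) for genes at 0.5 FPKM or more in at least 3 libraries. Fold changes are on that scale, which understates low genes. Benjamini-Hochberg adjustment ran over all genes tested, and genes with an adjusted p under 0.05 were called. The fits were also run on simulated data with normal noise and planted changes. Data simulated for the fits without the block lacked deviations shared by same-numbered libraries, so they show nothing on error rates there. Exact permutation tests used SciPy 1.17.1, two-sided. Alternatives were a pseudocount of 1, no filter, median-ratio scaling, 1 fit of 12 libraries, the replicate block and leaving out each library; unscaled FPKM and limma-voom were added after seeing the data. The replicate block used the repeat number in the titles. Deviations of same-numbered siNUF2 and siControl libraries correlated at 0.190 to 0.360 (769-P) and 0.461 to 0.735 (ACHN). Other pairs correlated at -0.00841 or less, but deviations from group means force them below 0 on average once same-numbered pairs are above it.

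The members and gene lists were chosen with earlier results of these data known. Named were all 9 members, NUF2, up to 8 list genes called per line in either fit with the lowest unadjusted p, and the 10 genes most like DOCK2. The 7 list genes called with the block in both lines are named as well, which adds VAV3. RAC1, RAC2, RAC3 and CDC42 are given as targets of DOCK proteins, and the other genes of their list are not reported here. Endothelial markers (0 of 4 at 0.5 FPKM or more in all 3 libraries of any group) were measured beside the leukocyte and renal ones.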

Additional observations from a re-analysis of the deposited data

How the results depend on the processing

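Over the alternatives, the 3 counts of called genes above 0 were within 1.5 times the main count in 21 of 37 fits; the 3 counts of 0 stayed at 0 in 42 of 44, which shows nothing on stability. The single members were labelled as unchanged in 418 of 463. For tested results this means that direction and call were kept. For DOCK2 where it had no test, it means a log2 difference moved by less than the SD within groups. Many of the tested results had no call to lose, so the count shows little on stability. The replicate block gave the widest change: 3 members in place of 1 in 769-P, 3 in place of 0 in ACHN, and 17 in place of 5 and 9 in place of 0 pathway genes; the calls it added are named beside the members, and it changed no other member's call. One fit of 12 libraries and the fit without the filter each left 2 pathway genes in 769-P. Leaving out 1 library gave 0 to 1 members and 1 to 9 pathway genes in 769-P, and 4 to 6 members that differed between the lines, partly because DOCK8 or DOCK11 then fell below the filter of 3 libraries. Differences near 0 changed sign. The interaction of DOCK1 was 0.0084 with a pseudocount of 1 and -0.1077 to 0.0657 without 1 library; DOCK9 in 769-P was -0.0049 with unscaled FPKM, -0.0009 in 1 fit of 12 libraries and -0.0625 to 0.0715 without 1 library. Without 1 library, in ACHN DOCK6 ran from -0.1464 to 0.2867 and DOCK11 from -0.3537 to 0.4827, and the interactions ran from -0.2660 to 0.1662 (DOCK6), -0.6777 to 0.2473 (DOCK10) and -0.7868 to 0.0567 (DOCK11). With a pseudocount of 1, log2 differences between the lines shrank for DOCK2 (3.29 to 2.49), DOCK11 (2.79 to 1.49), DOCK4 (2.24 to 1.51) and DOCK8 (-5.33 to -2.40), DOCK4 in 769-P went from 1.25 to 0.75, and the interaction of DOCK2 from -1.67 to -1.04. Except for the missing tests named above, the cause was not tested. With 3 libraries per group, the spread between libraries limits the members' precision, and the number of reads also limits DOCK8 in ACHN (2 to 7 a library) and DOCK11 in 769-P (49 to 86).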
